A study of Mus musculus with 2 samples.

Results

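Rsad2, Cmpk2, Oas3, Ddx60 and Ifi208 are interferon-inducible genes that encode antiviral enzymes, nucleic acid sensors or relatives of such sensors. They were chosen by name from the authors' deposited table of genes that differed between Musclin-treated and vehicle-treated fibro/adipogenic progenitors (FAPs), and they make up 5 of its 179 genes. FAPs are the mesenchymal stromal cells of skeletal muscle, and these came from C57BL/6 mice, freshly sorted and then grown in DMEM with 20% fetal bovine serum. The Musclin group was 1 library from cells given recombinant mouse Musclin (1 µM), a hormone-like peptide made in muscle, for 72 hours, with daily changes of medium. The vehicle group was 1 library from cells given an equal amount of vehicle for 72 hours, which the table heads PBS. The sources used here do not say how many mice or cultures went into each library.

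Interferons released by infected or stressed cells bind receptors on the same and neighbouring cells and switch on a shared set of antiviral genes. Some of these genes encode sensors that recognise foreign or misplaced RNA or DNA in the cytosol, and others encode enzymes that block viral replication directly. Stromal cells such as fibroblasts carry interferon receptors and can turn on this programme without immune cells being present.

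All 5 genes were higher in the Musclin library than in the vehicle library, with folds of 2.316 to 5.507 in the authors' deposited table. Because the table holds only genes past limits of fold and adjusted p, being listed is how the genes were chosen and is not a finding. Listed genes were 0.772% of the 23180 genes tested, and those listed as higher were 0.500%. The highest rank by p among listed genes was 1222, so most genes with p-values this small are not in the table. These shares are thus of genes past both limits and not of all genes past the adjusted p limit. With 1 library per group there was no spread between replicates and no test across samples, so every value below is a description of these libraries. Read counts were not available for this work, the depth is unknown, and the file header does not name the unit of the levels. Levels of different genes are compared below on the assumption that they are per transcript length, as the TPM and FPKM values of RSEM are. The table also cannot show whether the cells were FAPs, since it has levels for listed genes only and 0 of the 10 FAP markers examined, Pdgfra and Ly6a among them, was listed.

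The promoters are shown first, because interferon-induced transcription acts there through a short DNA element, the interferon-stimulated response element (ISRE). The 250 bases before each RefSeq start site (GRCm38.p6) are printed 5′ to 3′ on the strand of the gene. RefSeq and GENCODE starts differ by 0 to 11 bases. Positions are counted from the RefSeq start, and a transcript that starts elsewhere would shift them. Capitals mark matches to the ISRE core, GAAA followed by any 2 bases and GAAA again, on either strand. The windows are chr12:26456453-26456702 on the minus strand for Rsad2, chr12:26468965-26469214 on the plus strand for Cmpk2, chr5:120777660-120777909 on the minus strand for Oas3, chr8:61927837-61928086 on the plus strand for Ddx60 and chr1:173673415-173673664 on the plus strand for Ifi208.
Rsad2: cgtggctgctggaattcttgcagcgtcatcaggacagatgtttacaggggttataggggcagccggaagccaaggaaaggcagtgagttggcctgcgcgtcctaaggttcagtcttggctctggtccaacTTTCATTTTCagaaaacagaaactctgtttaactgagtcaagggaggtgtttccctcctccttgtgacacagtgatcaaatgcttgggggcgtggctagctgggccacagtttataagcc
Cmpk2: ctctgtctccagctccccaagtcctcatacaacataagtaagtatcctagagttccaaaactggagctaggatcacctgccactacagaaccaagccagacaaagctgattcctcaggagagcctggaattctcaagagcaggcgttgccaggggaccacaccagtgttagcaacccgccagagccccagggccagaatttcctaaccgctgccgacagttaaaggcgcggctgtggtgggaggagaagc
Oas3: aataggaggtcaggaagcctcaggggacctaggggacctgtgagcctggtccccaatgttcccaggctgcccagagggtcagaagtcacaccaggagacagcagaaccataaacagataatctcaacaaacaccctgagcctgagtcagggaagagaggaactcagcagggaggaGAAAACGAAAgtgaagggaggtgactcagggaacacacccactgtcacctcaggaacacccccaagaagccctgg
Ddx60: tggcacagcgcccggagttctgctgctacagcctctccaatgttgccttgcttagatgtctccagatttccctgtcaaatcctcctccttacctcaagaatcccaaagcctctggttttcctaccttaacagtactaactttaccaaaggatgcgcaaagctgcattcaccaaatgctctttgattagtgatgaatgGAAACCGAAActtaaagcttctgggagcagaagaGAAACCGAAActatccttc
Ifi208: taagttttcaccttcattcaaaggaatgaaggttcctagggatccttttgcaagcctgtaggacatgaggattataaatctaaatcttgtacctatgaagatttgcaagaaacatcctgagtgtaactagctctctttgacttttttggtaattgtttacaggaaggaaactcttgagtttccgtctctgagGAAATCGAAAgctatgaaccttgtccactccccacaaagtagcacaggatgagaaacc

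The search covered 300 bases per promoter, 250 before the start and 50 after it, on both strands. The ISRE core was found in 4 of the 5 promoters, all but that of Cmpk2. Of all 32851 RefSeq promoters of the same length, 3.44% held it. Ddx60 had 2 matches, both GAAACCGAAA on the strand of the gene, with their first bases at -53 and -19 from the start. At least 2 matches were present in 0.225% of all promoters. Oas3 had GAAAACGAAA at -75, and Ifi208 had GAAATCGAAA at -58. The match in Rsad2 lay farthest from its start, at -120, and reads TTTCATTTTC on the strand of the gene, so the core is on the opposite strand.

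The core of the gamma-activated site, TTC and GAA separated by any 3 bases, an element of genes that respond to interferon gamma, was in 0 of the 5 promoters and in 8.30% of all promoters. The letters TATAAA of the TATA box were in 3 of the 5, against 13.6% of all promoters. They lay at -178 on the strand of the gene in Ifi208 and at 3 bases after the start in Ddx60, and at -10 on the opposite strand in Rsad2. No match overlapped a match of another motif. These are matches of letters and not measured binding sites, and an absence says only that the letters are not in this window. Of the other listed genes from the interferon lists, 7 had a promoter in the RefSeq table, and Cxcl10, Ifit1, Ifit3, Ifit3b and Tgtp2 held the ISRE core. Ccl5, Gbp9, Mx1 and Mx2 had no entry.

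**Figure D1:**
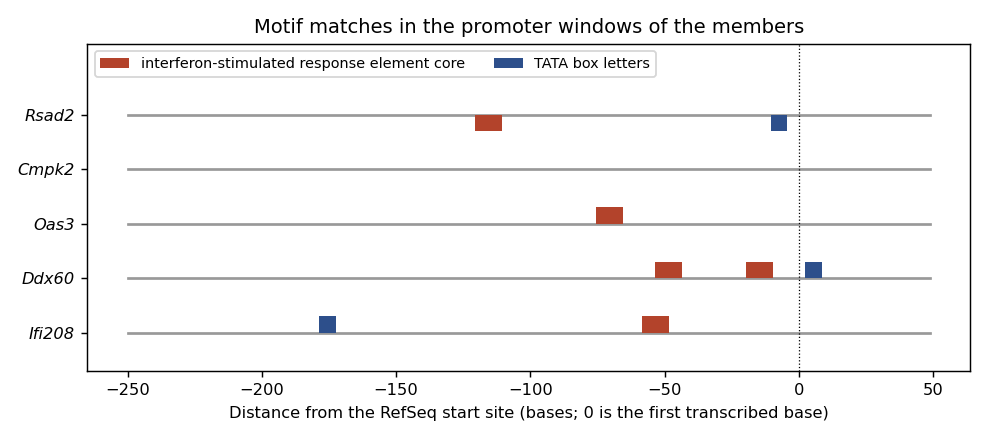
Positions of motif matches (boxes) in the promoter windows of the 5 genes, by distance in bases from the RefSeq start site; boxes above a line are on the strand of the gene and boxes below it on the opposite strand. The ISRE core (red) appears in Rsad2, Oas3, Ddx60 and Ifi208, with 2 matches in Ddx60, and not in the window of Cmpk2.

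Rsad2 encodes viperin, a radical S-adenosylmethionine enzyme that turns CTP into an analog which stops viral RNA chains. Its level was 2.46 in the Musclin library and 0.90 in the vehicle library. In the authors' deposited table its fold is 2.778, with a p of 5.25e-10 and an adjusted p of 4.91e-08. This p compares the 2 libraries and not the conditions, as do the other p-values of that table. Rsad2 (ENSMUSG00000020641) spans 12:26442746-26456452 on the minus strand of GRCm38, and its longest coding transcript has 6 exons and 3782 nt.

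Cmpk2 encodes a mitochondrial nucleoside monophosphate kinase that supplies the phosphorylated pyrimidine nucleotides from which CTP is made, the substrate of viperin. Its level was 2.75 in the Musclin library and 1.20 in the vehicle library. The fold in the authors' deposited table is 2.316, with an adjusted p of 1.90e-05. Cmpk2 (ENSMUSG00000020638) spans 12:26469204-26479837 on the plus strand, with 5 exons and 3200 nt in its coding transcript. Both genes of the pair thus had the same direction and similar levels. The level of Rsad2 was 0.895 times that of Cmpk2 in the Musclin library and 0.75 times in the vehicle library. The increase in level was 1.56 for Rsad2 and 1.55 for Cmpk2.

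The pair is arranged head to head. The annotated starts of Rsad2 and Cmpk2 lie 12752 bases apart, and no other gene is annotated between them in GENCODE M21. The nearest coding gene on the other side of Rsad2, Rnf144a, was not listed. Among the 86 listed genes annotated as coding or as polymorphic pseudogene, 4 adjacent pairs were found with both members listed, and 3 of these pairs were higher on both sides. Rsad2 and Cmpk2 had the smallest difference in log2 fold of the 4 pairs, 0.26 in the authors' deposited table. The other divergent pair, the interferon-induced GTPase genes Tgtp2 and Ifi47, differed by 0.71, and the hemoglobin genes Hbb-bt and Hbb-bs by 1.02. Tgtp2 has a near-identical copy, Tgtp1, so its fold is less certain. The retinol dehydrogenase genes Rdh16f1 and Rdh9 were listed in opposite directions.

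**Figure D2:**
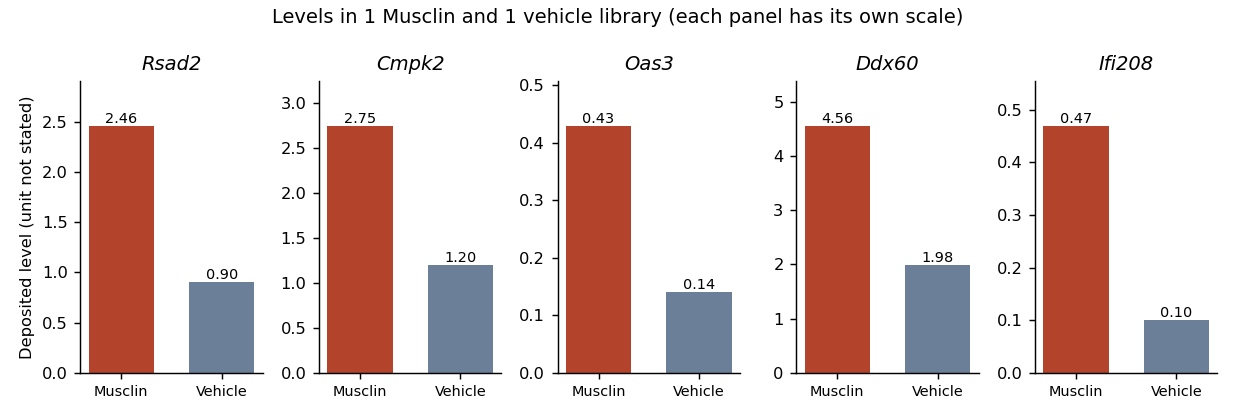
Deposited levels (unit not stated) of the 5 genes in the Musclin library (red, left bar) and the vehicle library (grey-blue, right bar), 1 library each and no error bars; each panel has its own scale from 0. All 5 genes are higher in the Musclin library, and Oas3 and Ifi208 stay under a level of 0.5 in both.

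Ddx60 encodes a helicase of the DExD/H box family that has been linked to signalling by the RNA sensor RIG-I in human cells, though not in every study. It had the highest level of the 5 genes in both libraries, 4.56 in the Musclin library and 1.98 in the vehicle library. In the authors' deposited table its fold is 2.319, with an adjusted p of 8.65e-18, the smallest of the 5. Its fold is nearly that of Cmpk2, and the difference between their log2 folds lies in the third decimal. Ddx60 (ENSMUSG00000037921) spans 8:61928087-62038244 on the plus strand, with 38 exons and 6535 nt in its longest coding transcript. A noncoding RNA, Gm45418, starts 59 bases from the start of Ddx60 on the opposite strand and was not listed.

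Oas3 encodes an oligoadenylate synthetase, which senses double-stranded RNA and makes the short oligoadenylates that activate the nuclease RNase L. Its level was 0.43 in the Musclin library and 0.14 in the vehicle library. In the authors' deposited table its fold is 3.683, with an adjusted p of 0.0143. Oas3 (ENSMUSG00000032661) spans 5:120753098-120777661 on the minus strand, with 16 exons and 4720 nt. It lies in a cluster of 10 oligoadenylate synthetase genes over 191 kb, of which Oas3 was the 1 listed. Oas2 and Oas1a to Oas1h were not listed, which does not show that they were unchanged.

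Ifi208 belongs to the PYHIN family of interferon-activated genes, whose members Aim2 and Ifi204 act in the sensing of DNA. It had a level of 0.47 in the Musclin library and 0.10 in the vehicle library. Its fold in the authors' deposited table, 5.507, is the largest of the 5, and its adjusted p of 0.0420 is also the largest. Ifi208 (ENSMUSG00000066677) spans 1:173673675-173698395 on the plus strand, with 7 exons and 2990 nt. Of 12 coding PYHIN genes examined in this cluster, which span 681 kb and may not be all of it, Ifi208 was the 1 listed. Reads of this gene are hard to assign: 93.0% of its longest transcript matched other genes at 90% identity or more, and the longest match was to Ifi213, at 96.4% over 2749 nt.

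**Figure D3:**
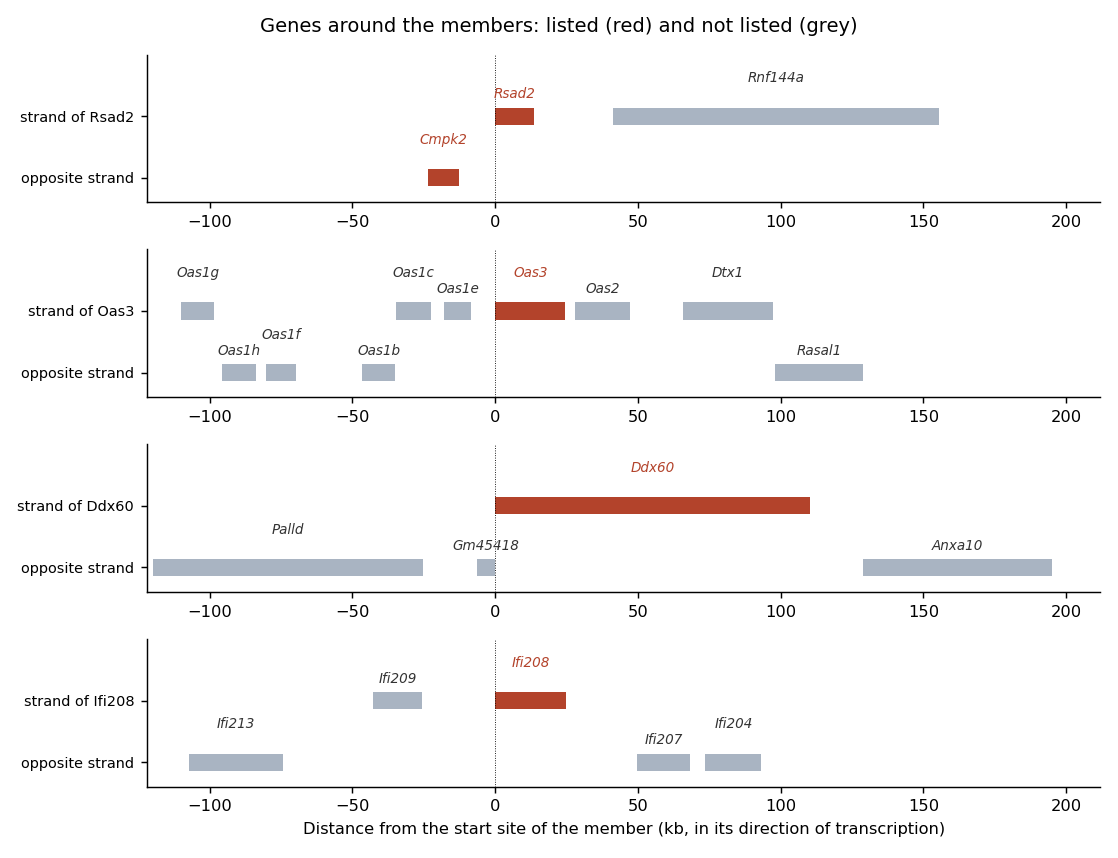
Genes around Rsad2, Oas3, Ddx60 and Ifi208 by distance in kb from the start of the named gene, in its direction of transcription; red boxes were listed by the authors, grey boxes were not. Coding genes, the polymorphic pseudogene Oas1b and Gm45418 are drawn, those outside 100 kb only where they reach into that distance, and Palld runs on past the left edge. Cmpk2 is the 1 listed neighbour, next to Rsad2.

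The other 4 genes share little sequence with the rest of the transcriptome. No stretch of Rsad2 or Cmpk2 matched another gene at 90% identity. In Oas3 the last part of the transcript, from base 4374 to base 4720 and 7.35% of its length, matched 94 other genes, and in Ddx60 the share was 0.658%. Ribosomal RNA is matched by 1 of the 6 Ddx60 transcripts. That transcript is a retained-intron form, with a longest match of 86 nt, and none of the 4 coding transcripts of Ddx60 matched. None of the 5 genes overlaps the span of another annotated gene on either strand.

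The evidence behind the folds differs with level and transcript length. If the levels are per unit of transcript length, level times length in kb is proportional to the number of reads. This product was 29.8 for Ddx60 in the Musclin library and 12.9 in the vehicle library. Rsad2 had 31.2% of the value of Ddx60 in the Musclin library and 26.3% in the vehicle library. Cmpk2 had 29.5% in the Musclin library and 29.7% in the vehicle library. Oas3 had 6.81% in the Musclin library and 5.11% in the vehicle library, and Ifi208 had 4.72% in the Musclin library and 2.31% in the vehicle library. The order of the genes by p in the authors' deposited table follows from Ddx60 through Rsad2, Cmpk2 and Oas3 to Ifi208, at ranks 100, 248, 363, 832 and 1156 among the 23180 tests. Oas3 and Ifi208, with the fewest reads by this measure, thus had the largest folds and the largest p-values. The table keeps only genes past limits of fold and adjusted p, a selection that bears on this relation, and its part was not tested.

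The neighbouring pair and the sensor and effector genes Oas3, Ddx60 and Ifi208 had similar summed levels and folds that overlapped. The pair had a summed level of 5.21 in the Musclin library and 2.10 in the vehicle library. The sum over Oas3, Ddx60 and Ifi208 was 5.46 in the Musclin library and 2.22 in the vehicle library, most of it from Ddx60. The mean log2 fold in the authors' deposited table was 1.34 for the pair (1.21 to 1.47) and 1.85 for Oas3, Ddx60 and Ifi208 (1.21 to 2.46), a difference of -0.51. The ranges overlap, since Cmpk2 and Ddx60 had almost the same fold. It was -0.20 without Ifi208 and -0.83 without Ddx60, so its size rests on which of these genes are counted.

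The direction of this difference depended on how low levels were treated. As ratios of the levels with no pseudocount, the log2 values were 1.45 for Rsad2, 1.20 for Cmpk2, 1.62 for Oas3, 1.20 for Ddx60 and 2.23 for Ifi208. With a pseudocount of 1 added to both levels they were 0.86 for Rsad2, 0.77 for Cmpk2, 0.33 for Oas3, 0.90 for Ddx60 and 0.42 for Ifi208. The difference between the pair and the other genes then turned to 0.27. A pseudocount understates the change of genes at low level, and Oas3 and Ifi208 are the 2 genes that stayed under a level of 1 in each library.

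**Figure D4:**
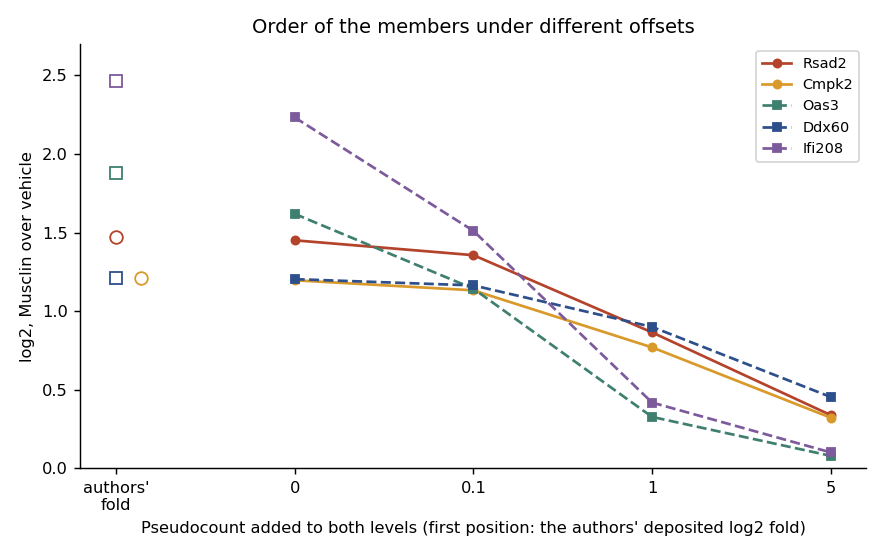
The log2 of Musclin over vehicle for each gene (y axis), as the authors' deposited log2 fold (open symbols, Cmpk2 shifted sideways for visibility) and as the ratio of levels after adding a pseudocount (filled symbols, x axis in equal steps). Circles are Rsad2 and Cmpk2, squares are Oas3, Ddx60 and Ifi208; Ifi208 and Oas3 are highest with no pseudocount and lowest at 1 and 5.

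The fold printed in the authors' deposited table was, for all 5 genes, above the ratio of the deposited levels, and also above the highest ratio that rounding of the levels to 2 decimals allows. For Rsad2 that highest ratio was 2.75 against a fold of 2.778, for Cmpk2 2.305 against 2.316, and for Ddx60 2.311 against 2.319. The gap was wider for Oas3, with 3.22 against 3.683, and for Ifi208, with 5.0 against 5.507. Among the 93 listed genes that were higher and above 0 in both libraries, the fold was above the ratio of levels in 50, and its median quotient was 1.001. The printed fold is thus not the ratio of the printed levels, and the sources used here do not describe how either was scaled.

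Among the 116 genes listed as higher, ordered by fold from the largest, Ifi208 ranked 53, Oas3 63, Rsad2 83, Ddx60 97 and Cmpk2 98. The median log2 fold of the 5 genes was 1.47, compared with 2.19 for those 116 genes, some of which were listed at 0 in the vehicle library. Their median level was 2.46 in the Musclin library and 0.90 in the vehicle library, while those 116 genes had a median of 2.40 in the Musclin library and 0.49 in the vehicle library. In both libraries, 34 of the 116 stayed under a level of 1, Oas3 and Ifi208 among them. Likeness of pattern could be judged only by the size of the fold in 1 pair of libraries. Of 52 listed genes with an ordinary symbol that reached a level of 1 in either library, the nearest to Rsad2 in log2 fold were Hbb-bs, Ndor1, Cxcl9, Fam220a and AW011738, at differences of 0.014 to 0.185. Cxcl9 is the 1 of these that belongs to the interferon lists.

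**Figure D5:**
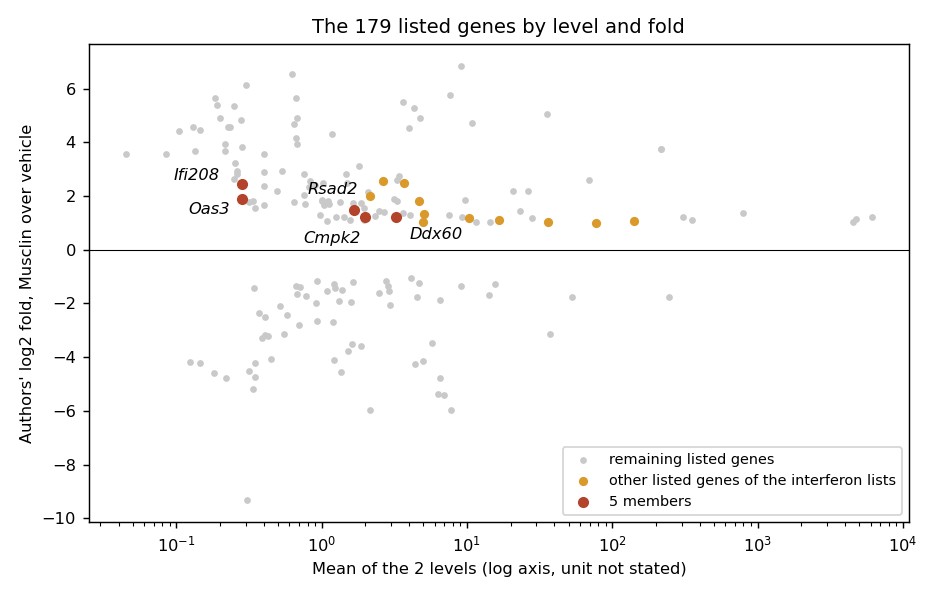
The 179 listed genes by the mean of their levels in both libraries (log axis, unit not stated) and the authors' deposited log2 fold of Musclin over vehicle; red points are the 5 genes, orange points the 11 other listed genes of the interferon lists. Oas3 and Ifi208 sit at the low end of the levels with log2 folds of 1.88 and 2.46, and Rsad2, Cmpk2 and Ddx60 lie near the lower edge of the genes that were higher.

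The pathway around these genes was described with lists ordered from ligand to effector. Of 27 interferons and interferon receptors, 0 were listed, Ifnb1, Ifng, Ifnar1 and Ifngr1 included. Of 24 genes of interferon signalling and its feedback, 0 were listed, Irf7, Irf9, Usp18 and Isg15 included. For lists of this size, both counts of 0 are near the 0.772% of all genes tested that were listed in either direction. Of 47 antiviral enzymes and nucleic acid sensors, 5 were listed as higher and 0 as lower. These 5 are the genes described here, and the RNA sensors Ddx58 and Ifih1, the kinase Eif2ak2 and the DNA sensor Cgas were among the 42 not listed. In none of these lists does absence show that a gene was unchanged. The smallest fold among genes listed as higher was 2.006, so a gene with a smaller increase would not appear. Of 59 other interferon-stimulated effectors, 11 were listed as higher and 0 as lower. Their share, like that of the sensor list, can be set beside the 0.500% of all genes tested, but both lists were written with these results known.

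Among the listed effectors with a level of 1 or above in at least 1 library, Ccl5 and Cxcl10, which attract T cells, had the largest folds. Ccl5 had a level of 4.53 in the Musclin library and 0.77 in the vehicle library, and Cxcl10 had 6.29 in the Musclin library and 1.09 in the vehicle library. Mx1, a gene of the dynamin-like GTPase family, had a level of 3.54 in the Musclin library and 0.77 in the vehicle library. Tgtp2 had 7.54 in the Musclin library and 1.86 in the vehicle library. In the authors' deposited table, Ccl5, Cxcl10, Mx1 and Tgtp2 have folds of 5.901, 5.648, 3.998 and 3.528. The adjusted p there is 0.0266 for Ccl5 and 1.30e-09 for Cxcl10. Tgtp2 has a near-identical copy, Tgtp1, at 99.8% identity over 100% of its longest transcript, so its reads are hard to assign. The fold of Ifi208 (5.507) lies between those of Cxcl10 and Mx1, and that of Oas3 (3.683) between those of Mx1 and Tgtp2, both at levels under 1. Rsad2, at 2.778, lies below Tgtp2, followed by Cxcl9 at 2.496, Ddx60 at 2.319 and Cmpk2 at 2.316. Cxcl9 had a level of 7.93 in the Musclin library and 2.20 in the vehicle library. By the ratio of these levels it would lie above Rsad2. Genes of another cell type were listed in the same comparison. Of 6 red blood cell markers, Hba-a1, Hbb-bs and Hbb-bt were higher and 0 were lower, while 0.500% of all genes tested were listed as higher. The summed level of Hba-a1, Hbb-bs and Hbb-bt was 51.2 in the Musclin library and 17.2 in the vehicle library. Hba-a1 has a near-identical copy, Hba-a2, so its reads are hard to assign. Short structural RNAs, chosen after their values were seen, were also higher. Rmrp had a level of 68.6 in the Musclin library and 1.99 in the vehicle library, and Rn7s1 had 401.4 in the Musclin library and 28.8 in the vehicle library. Rn7sk had 120.1 in the Musclin library and 19.2 in the vehicle library, and Rpph1 had 34.0 in the Musclin library and 7.28 in the vehicle library. Rn7s1 and Rn7sk have near-identical copies, Rn7s2 and Gm24447, so their reads are hard to assign. Whether red blood cell RNA or a difference in RNA or library make-up had a part in the higher levels of the 5 genes was not tested. Of the marker lists for macrophage and myeloid (10 genes), plasmacytoid dendritic (5), lymphoid (10), endothelial (6) and myogenic cells (6), 0 genes were listed. For lists of this size, 0 is near the 0.772% of all genes tested that were listed in either direction. An unlisted marker has no level in the table, so it is not known to be at 0, and fewer or more cells of a type cannot be told apart from a change of RNA per cell.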

How the data were processed

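Expression was measured by RNA sequencing of total RNA in 1 Musclin and 1 vehicle library. The authors' deposited table gives an expression signal (level) per library, a fold (ratio) of Musclin over PBS and its log2 value, a p-value and an adjusted p-value. The library headed PBS was read as the vehicle, being the denominator and the remaining library. The submitters' processing notes name RSEM, edgeR and GRCm38.p5 but give no version or role. Aligner, annotation, filters, scaling and strandedness were not stated in the sources used here. The fold, log2 fold and p-values are the authors' and were copied, not refitted.

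The number of genes tested is the smallest for which tests times p over adjusted p, a rank under the Benjamini-Hochberg adjustment, is whole within 0.001 for the 178 genes whose p is not 0. In simulations of 170 genes each it was recovered in 10 of 10, and planted motifs in 200 of 200. The simulated adjusted p-values were exact, and the sequences were otherwise only C and G. These runs therefore check the code and not how well it suits these data. Ratios of levels were computed with pseudocounts of 0, 0.1, 1 and 5. Gene positions came from GENCODE M21 (GRCm38) and promoters from RefSeq (GRCm38.p6), which held all 5 genes. BLAST+ 2.17.0 (megablast) searched all M21 transcripts with the longest transcript per listed gene. Near-identical copies had 95% identity across 50% or more of its length. Protein sequences were not analysed here. Python 3.11.15 was used with numpy 2.4.6, pandas 2.3.3 and matplotlib 3.10.9.

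The 5 genes and all lists were chosen with earlier results of these data known. The antiviral list has 50 names for 47 annotated genes, since Pydc3, Pydc4 and Mnda are other names of Ifi208, Ifi213 and Ifi211. The naming rule took the 8 listed genes of the interferon lists with the largest log2 folds at a level of 1 or more, Rsad2, Ddx60 and Cmpk2 among them. It also took the 5 genes described here and the 5 nearest to Rsad2 in log2 fold. The other genes named were chosen after their values were seen.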

Additional observations from a re-analysis of the deposited data

How the results depend on the processing

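No paired analysis was possible because each group has 1 library, and for the same reason no replicate could be left out and depth sets no stated limit. An adjusted p of 0.01 or less and of 0.001 or less each kept 3 of the 5 genes (Rsad2, Cmpk2 and Ddx60), as did a level minimum of 1 in the library where the gene was higher, and a log2 fold of at least 2 in size kept 1 (Ifi208). The same counts hold for the list of antiviral enzymes and sensors. Of the 116 genes listed as higher, these adjusted p limits kept 72 and 52, the level minimum kept 82 and the fold limit kept 61. Leaving out genes with a near-identical copy kept 4 of the 5, without Ifi208, and 81 of the 116. A level ratio of at least 2 kept all 5, and 113 of the 116. This ratio limit could hardly remove a gene, since the smallest fold among the 116 was 2.006.

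The fold of the authors' deposited table, not its log2, changed by a factor over 1.5 under some pseudocounts. The cases are given here as log2 values. At 0.1 the log2 value was 1.14 for Oas3 and 1.51 for Ifi208. At 1 it was 0.86 for Rsad2, 0.33 for Oas3 and 0.42 for Ifi208. At 5 it was 0.34 for Rsad2, 0.32 for Cmpk2, 0.079 for Oas3, 0.45 for Ddx60 and 0.10 for Ifi208. These values differ from the deposited ones both in the constant and in using the ratio of levels, which with no pseudocount gave 1.62 for Oas3 and 2.23 for Ifi208. The difference between the pair and the other genes (-0.51) reversed to 0.27 at a pseudocount of 1 and to 0.12 at 5. It was -0.36 with no pseudocount, -0.03 at 0.1, and -0.20, -0.49 and -0.83 without Ifi208, Oas3 and Ddx60.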
